A study of Mus musculus with 11 samples.

Results

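The kidney tubule recovers filtered amino acids and small peptides through a set of membrane transporters, and 10 of their genes are described here: Slc3a1, Slc7a9, Slc3a2, Slc7a7, Slc7a8, Slc6a18, Slc6a19, Slc1a1, Slc6a13 and Slc15a2. They were chosen by name from 18193 measured genes, with earlier results of these data known. The shares of members given below are thus not those of a set chosen blind to the values. The array carried 16 probe sets for them. Slc1a1 and Slc15a2 had 3 probe sets each, Slc7a7 and Slc6a19 had 2 each, and the one with the highest log2 mean over the arrays stood for its gene (the main probe set). Levels of different probe sets were not set against each other, because probes differ in how brightly they bind.

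Each of 11 samples of mouse kidney at embryonic day 17 was measured on 1 Affymetrix array. The E17R2 title series held 3 wild-type arrays (replicates 1, 3 and 7) and 3 Robo2 homozygous arrays (replicates 2, 8 and 9). The R2E17 title series held 1 wild-type array (replicate 3) and 1 Robo2 homozygous array (replicate 6), and a further 3 arrays labelled Robo2 homozygous (replicates 3, 4 and 5) carried titles in R2NB. The labels do not say what the Robo2 allele is, which strain was used, what NB stands for or whether replicates were separate animals. A p-value here thus reflects sample-to-sample spread alone, part of which may be technical.

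The deposited intensities fell into 2 sets with different distributions, which were treated here as normalized apart, although the labels do not state it. The R2E17 and R2NB arrays formed a set of 5 with median intensities of 47.1 to 53.4, and the E17R2 arrays formed a set of 6 with medians of 23.4 to 24.6. Every level below is therefore log2 intensity minus the median of its own array, called the relative log2 level. Free-text labels spoke of human brain, against the organism, source and tissue labels. Markers of brain averaged −0.83 to 0.77 per array on this scale, whereas markers of the proximal tubule averaged 1.83 to 4.84. These means cover unlike probe sets and do not measure tissue shares. Mean levels of single brain markers ran from −2.34 (Neurod1) to 2.63 (Mbp). Those of proximal tubule markers ran from −0.53 (Slc34a3) to 5.64 (Fbp1). Some arrays stood apart. E17R2 homozygous replicate 9 had a smooth muscle marker mean of 7.43, against 2.71 to 4.43 on the other 10 arrays. Liver marker means were 6.88 on R2NB replicate 4, 6.06 on E17R2 wild-type replicate 7 and 5.11 on E17R2 homozygous replicate 2. On the remaining arrays they ran from 2.43 to 3.47. Adrenal marker means were 3.96 on R2NB replicate 4 and 3.80 and 3.60 on E17R2 wild-type replicates 1 and 3. On the remaining arrays they ran from −0.87 to 2.14. The R2E17 wild-type array had the largest 3′ minus 5′ difference of the Gapdh and Actb control probes, at 0.70 and 1.12. Robo2 itself was dim, at −1.46, −0.87 and −1.46 on the E17R2 wild-type arrays and −2.55, −2.22 and −2.29 on the homozygous arrays. The homozygous arrays were all below the wild-type arrays, by 1.09 ± 0.18 (SE), but the difference did not pass in limma over all genes (adjusted p = 0.867), and the R2E17 pair, at −1.77 in wild-type and −2.27 in homozygous kidney, differed by −0.50. The R2NB arrays read −2.27, −1.85 and −1.75, so Robo2 did not separate them from the R2E17 wild-type array, and their genotype rests on the labels alone.

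Amino acids and peptides enter the cells of the proximal tubule from the filtrate across the apical brush border and leave toward the blood across the basolateral membrane. Several of the carriers are pairs: a glycoprotein heavy subunit takes a light subunit to the membrane, and the light subunit carries the substrate. Slc3a1 is the apical heavy subunit and pairs with Slc7a9 to take up cystine and cationic amino acids, and loss of either gene causes cystinuria. Slc3a2 is the heavy subunit of the basolateral side, made in nearly all cell types, where its partners Slc7a7 and Slc7a8 export cationic and exchange neutral amino acids. Slc6a19 and Slc6a18 are apical sodium-driven carriers of neutral amino acids, Slc1a1 takes up glutamate and aspartate, Slc6a13 carries GABA and related osmolytes such as taurine, and Slc15a2 is the high-affinity carrier of di- and tripeptides.

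All members were higher in the set of 5 than in the other arrays, by unequal amounts, and the heavy subunits Slc3a1 and Slc3a2 differed in size of rise. The promoter sequences of both are therefore shown with those of the light partners Slc7a9 and Slc7a7. The sequences are the 250 bases before the RefSeq start in build GRCm38.p6, written 5′ to 3′ on the gene's strand, with matches to 3 searched motifs in capitals. Slc3a1 lies at chr17:85028097-85028346, plus strand. Slc7a9 lies at chr7:35448842-35449091, plus strand. Slc3a2 lies at chr19:8713898-8714147, minus strand. The Slc7a7 window, shown because it is the only 1 of 5 with a motif match, belongs to the fifth of its listed starts, at chr14:54409473-54409722, minus strand.
Slc3a1: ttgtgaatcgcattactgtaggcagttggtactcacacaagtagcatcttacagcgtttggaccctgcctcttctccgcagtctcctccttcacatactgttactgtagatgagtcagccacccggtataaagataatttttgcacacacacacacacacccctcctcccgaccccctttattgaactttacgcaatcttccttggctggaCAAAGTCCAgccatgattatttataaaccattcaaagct
Slc7a9: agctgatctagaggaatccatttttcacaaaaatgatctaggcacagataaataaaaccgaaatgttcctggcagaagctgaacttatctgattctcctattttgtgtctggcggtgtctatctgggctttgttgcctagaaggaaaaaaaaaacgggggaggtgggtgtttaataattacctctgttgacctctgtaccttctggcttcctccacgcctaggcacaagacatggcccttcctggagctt
Slc3a2: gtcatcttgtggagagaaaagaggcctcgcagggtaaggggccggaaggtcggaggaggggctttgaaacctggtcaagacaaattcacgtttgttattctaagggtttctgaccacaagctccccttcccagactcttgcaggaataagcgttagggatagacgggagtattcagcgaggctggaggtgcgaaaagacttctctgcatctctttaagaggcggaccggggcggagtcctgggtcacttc
Slc7a7: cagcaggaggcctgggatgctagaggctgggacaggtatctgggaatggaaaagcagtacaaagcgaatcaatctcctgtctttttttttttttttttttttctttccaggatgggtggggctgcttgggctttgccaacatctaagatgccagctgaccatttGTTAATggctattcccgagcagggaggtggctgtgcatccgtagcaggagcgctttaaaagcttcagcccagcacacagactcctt

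The motifs were the HNF4 letters CAAAGTCCA, the HNF1 letters GTTAAT and the letters TGATGNAAT of a site bound by ATF4 with C/EBP factors, each searched on both strands. Hnf4a and Hnf1 factors are regulators of proximal tubule genes, and ATF4 is the regulator of the response to amino acid shortage. RefSeq promoters were matched for 9 of the 10 members, with 16 starts between them, and Slc6a18 had no entry. The HNF4 letters stood in 1 of the 16 windows, on the plus strand 39 to 31 bases before the Slc3a1 start, and in 0.384% of all 32851 promoter windows of this length. The HNF1 letters stood in the Slc7a7 window shown, 86 to 81 bases before the start, and in 1 Slc6a13 window, against 6.43% of all windows. The letters TGATGNAAT were in 0 of the 16, against 0.816% of all. Among the windows shown, those of Slc3a1 and Slc7a9 had 45.6% and 44.4% G and C with 6 and 4 CpG, the Slc3a2 window had 53.6% with 11 CpG, and the median of all windows was 52.4% with 6 CpG. The other Slc7a9 start, not shown, was at that median, with 52.4% and 6 CpG, and the 5 Slc7a7 windows ran from 48.8% to 63.2%. Slc1a1 was the most CpG-rich member, with 70.4% and 27 CpG. A match is a run of letters, not a bound site.

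All 10 transporters were higher on the R2E17 and R2NB arrays than on the E17R2 arrays. The rise was largest for the basolateral light subunit Slc7a7, the apical carrier Slc6a18 and the apical heavy subunit Slc3a1, and smallest for Slc6a19 and the heavy subunit Slc3a2. In limma with genotype as a term, 10 of 10 passed as higher at an adjusted p of 0.05, where 22.3% of all genes passed as higher and 54.5% in either direction. For each of the 10, all 5 arrays lay above all 6, which held for 16.3% of genes. A difference over 1 on the log2 scale was reached by 7 of the 10 and by 3.0% of genes. The median member differed by 1.38 and the median gene by −0.07. Title series, normalization and any difference in the kidneys themselves cannot be told apart in this comparison. In whole tissue, fewer cells of a type and less RNA per cell cannot be told apart either.

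**Figure D1:**
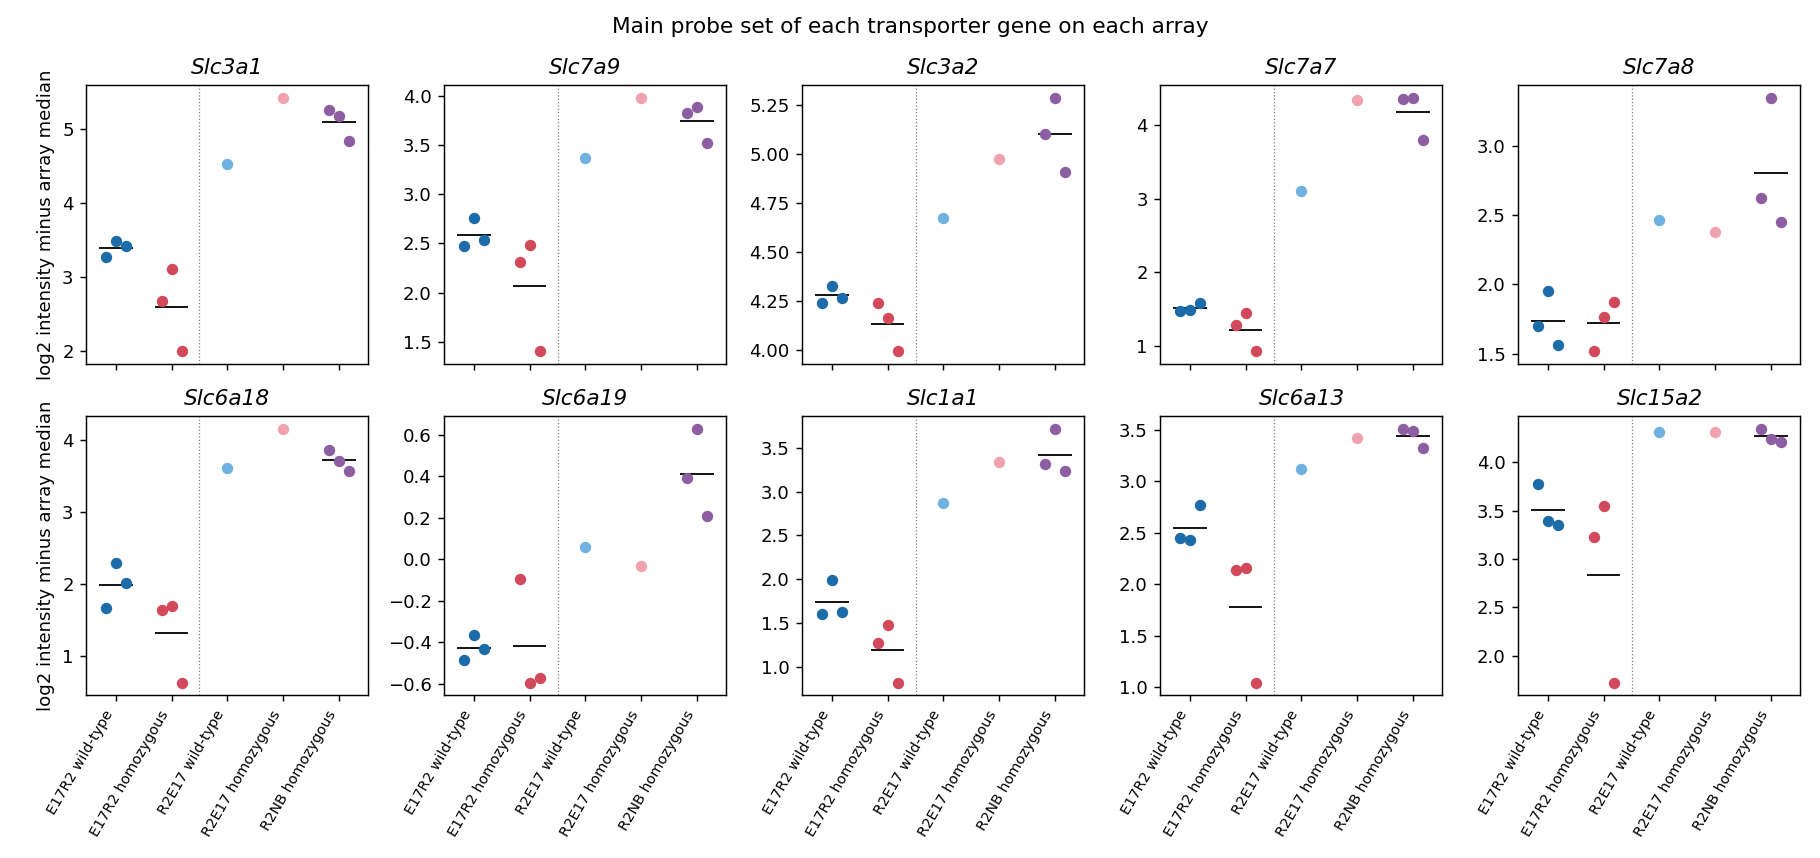
Relative log2 level (log2 intensity minus the array median, vertical axis) of the main probe set of each transporter gene, by group; each point is 1 array, lines are means of groups of 3, and the dotted line separates the set of 6 (left) from the set of 5 (right). In every panel the 5 arrays on the right lie above the 6 on the left, with the narrowest gap, 0.06, for Slc6a19 and the widest, 1.52, for Slc7a7. Vertical scales differ between panels.

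Slc3a1, the apical heavy subunit, had relative log2 levels of 4.52 on the R2E17 wild-type array, 5.42 on the R2E17 homozygous array and 5.26, 5.17 and 4.84 on the R2NB arrays. On the E17R2 arrays it was 3.27, 3.49 and 3.42 in wild-type and 2.68, 3.11 and 2.0 in homozygous kidneys. The lowest array of the set of 5 was 1.03 above the highest of the set of 6. The difference in limma was 2.14 ± 0.27 (SE), a 4.39-fold higher signal (adjusted p = 7.1e-05), which ranked 58th from the top of 18193 genes.

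Its light partner Slc7a9, which forms the transport path for cystine, was at 3.37 and 3.98 on the R2E17 wild-type and homozygous arrays and at 3.82, 3.88 and 3.52 on the R2NB arrays. The E17R2 arrays read 2.47, 2.76 and 2.53 in wild-type and 2.31, 2.49 and 1.40 in homozygous kidneys. The sets were again separate, and the difference was 1.44 ± 0.23 (SE), or 2.72-fold (limma, adjusted p = 0.00029). Slc3a1 and Slc7a9 followed each other closely from array to array. With the mean of each set removed, their Pearson r over 11 arrays was 0.96, the highest of the 45 pairs of members, and 0.92 without E17R2 homozygous replicate 9. These correlations are descriptions, and the arrays of a set share their normalization.

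Slc3a2, the widely expressed heavy subunit, was also separate between the sets. It read 4.67 and 4.97 on the R2E17 wild-type and homozygous arrays, 5.10, 5.29 and 4.91 on the R2NB arrays, 4.24, 4.33 and 4.27 on the E17R2 wild-type arrays and 4.24, 4.17 and 3.99 on the E17R2 homozygous arrays. Its difference between the sets was 0.77 ± 0.11 (SE), or 1.70-fold (limma, adjusted p = 0.00019).

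Slc7a7, the basolateral exporter of cationic amino acids whose loss causes lysinuric protein intolerance, showed the largest difference of the members. Its relative log2 level was 3.10 and 4.33 on the R2E17 wild-type and homozygous arrays and 4.35, 4.36 and 3.79 on the R2NB arrays. On the E17R2 arrays it was 1.48, 1.49 and 1.59 in wild-type and 1.29, 1.45 and 0.93 in homozygous kidneys. The difference was 2.56 ± 0.23 (SE), or 5.89-fold (limma, adjusted p = 1.0e-05), 22nd from the top of all genes. A further Slc7a7 probe set gave 1.58 ± 0.34 in the same direction (limma over all probe sets, adjusted p = 0.0022), with the R2E17 wild-type array at −0.04 and the R2E17 homozygous array at 1.92.

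Slc7a8, the basolateral exchanger of neutral amino acids, was at 2.46 and 2.38 on the R2E17 wild-type and homozygous arrays and at 2.62, 3.34 and 2.45 on the R2NB arrays. The E17R2 levels were 1.70, 1.95 and 1.56 in wild-type and 1.52, 1.77 and 1.88 in homozygous kidneys. R2NB replicate 4 stood above the rest, and it was also the array with the highest liver and adrenal marker means, 6.88 and 3.96. E17R2 wild-type replicate 7, with a liver marker mean of 6.06, had the lowest wild-type Slc7a8 level. The part of liver or adrenal RNA in the Slc7a8 level was not tested. Over all arrays the difference between the sets was 0.90 ± 0.18 (SE), or 1.86-fold (limma, adjusted p = 0.0013). Leaving out 1 array at a time gave 0.75 to 0.98, and each passed.

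In 2 of 3 pairs, heavy and light subunits differed between the sets by unequal amounts. How many other gene pairs did so was not computed. In limma 54.5% of all genes passed between the sets in either direction, so unequal amounts may not be particular to these pairs. A log2 ratio of 2 probe sets within an array is free of any single scaling factor of that array, although not of steps that treat bright and dim probe sets unequally. The heavy minus light difference was compared between the sets with a 2-sided exact permutation test over arrays (462 splits, smallest possible p 0.0043), adjusted over 3 pairs. For Slc3a1 minus Slc7a9 the ratio was 1.33 ± 0.12 (SD, n = 5) in the set of 5 and 0.67 ± 0.18 (SD, n = 6) in the set of 6, a difference of 0.66 (exact permutation p = 0.0043, adjusted 0.0065). The heavy subunit signal thus differed more between the sets than the light. For Slc3a2 minus Slc7a7 the ratio was 1.0 ± 0.37 (SD, n = 5) against 2.83 ± 0.15 (SD, n = 6), a difference of −1.83 (exact permutation p = 0.0043, adjusted 0.0065). Here the light subunit signal differed more. The ratio of Slc3a2 to Slc7a8 was 2.34 ± 0.26 (SD, n = 5) against 2.48 ± 0.23 (SD, n = 6), and its difference of −0.14 lay within the spread of the arrays (exact permutation p = 0.364). After quantile normalization of all 11 arrays together the differences were 0.67, −1.82 and −0.11.

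**Figure D2:**
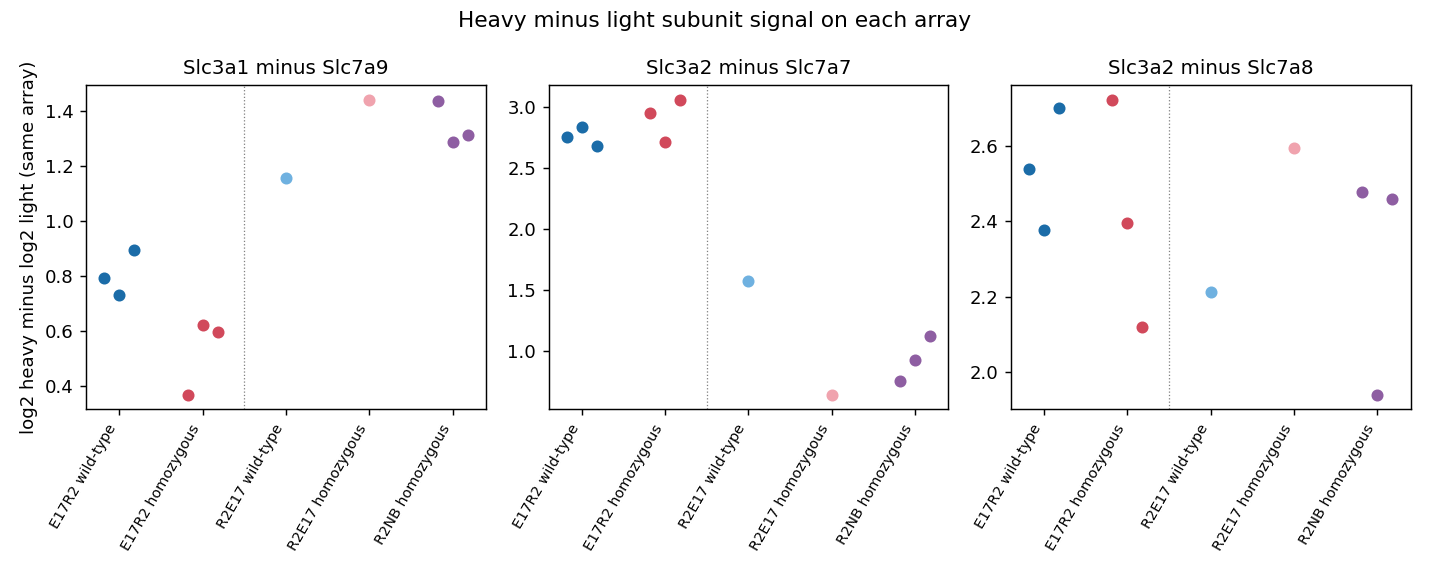
Log2 signal of the heavy subunit minus that of the light subunit on the same array (vertical axis) for 3 heavy and light pairs, by group; each point is 1 array. The ratio of Slc3a1 to Slc7a9 runs from 1.16 to 1.44 in the set of 5 and from 0.37 to 0.89 in the set of 6, that of Slc3a2 to Slc7a7 from 0.64 to 1.57 and from 2.68 to 3.06, and that of Slc3a2 to Slc7a8 overlaps. The height of a ratio has no meaning by itself, because it sets 2 probe sets against each other.

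Among the homozygous arrays alone, 4 against 3, the differences were 0.84 for Slc3a1 minus Slc7a9 and −2.05 for Slc3a2 minus Slc7a7, each with the smallest p this size allows (exact permutation p = 0.0571). In the Slc3a2 to Slc7a7 ratio the R2E17 wild-type array, at 1.57, lay nearest to the set of 6, whereas the R2E17 homozygous array had the lowest value, 0.64.

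The apical carriers of neutral amino acids, Slc6a18 and Slc6a19, are direct neighbours on chromosome 13 with no gene between them in the RefSeq table. Slc6a18 read 3.61 and 4.15 on the R2E17 wild-type and homozygous arrays and 3.86, 3.71 and 3.57 on the R2NB arrays, against 1.66, 2.29 and 2.01 in E17R2 wild-type and 1.64, 1.70 and 0.62 in E17R2 homozygous kidneys. The difference was 2.24 ± 0.24 (SE), or 4.71-fold (limma, adjusted p = 2.6e-05). Slc6a19, the gene of Hartnup disorder, was close to the array median throughout and was the only member whose mean relative log2 level did not exceed 0. It read 0.06 and −0.03 on the R2E17 arrays and 0.39, 0.63 and 0.21 on the R2NB arrays, against −0.49, −0.36 and −0.43 in E17R2 wild-type and −0.09, −0.59 and −0.57 in E17R2 homozygous kidneys. The difference was 0.65 ± 0.14 (SE), or 1.57-fold (limma, adjusted p = 0.0020), and a further Slc6a19 probe set gave 0.75 ± 0.19 (limma over all probe sets, adjusted p = 0.0052).

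Slc1a1, the glutamate and aspartate carrier of the brush border, was at 2.87 and 3.34 on the R2E17 wild-type and homozygous arrays and at 3.31, 3.72 and 3.24 on the R2NB arrays. The E17R2 arrays read 1.61, 1.99 and 1.62 in wild-type and 1.27, 1.48 and 0.82 in homozygous kidneys. The sets were separate, with a difference of 1.88 ± 0.20 (SE), or 3.69-fold (limma, adjusted p = 2.7e-05). Its other probe sets were dimmer: 1 gave 1.48 ± 0.17 (limma over all probe sets, adjusted p = 3.6e-05) and 1 gave 0.31 ± 0.13, which did not pass (adjusted p = 0.0675).

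Slc6a13, the GABA and taurine carrier, read 3.12 and 3.42 on the R2E17 wild-type and homozygous arrays and 3.51, 3.49 and 3.33 on the R2NB arrays. On the E17R2 arrays it was 2.45, 2.43 and 2.77 in wild-type and 2.14, 2.16 and 1.04 in homozygous kidneys. Its difference between the sets was 1.32 ± 0.24 (SE), or 2.50-fold (limma, adjusted p = 0.00082).

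Slc15a2, the peptide carrier, gave discordant probe sets. The main probe set was nearly flat in the set of 5, at 4.31 and 4.31 on the R2E17 arrays and 4.34, 4.24 and 4.21 on the R2NB arrays. On 3 of these arrays the deposited value was the same to the last digit, 9.95 as log2 intensity, so their spread understates the error. The same held for Slc6a13 on 3 arrays of the set of 5, at 9.07, and for Slc6a18, Slc6a19 and Slc1a1 on 2 arrays each, at 9.42, 5.95 and 8.98. Between 4633 and 6876 of the 45101 probe sets had identical values on any 2 arrays of that set, so the standard errors of all members may be too small. On the E17R2 arrays the main Slc15a2 probe set read 3.77, 3.40 and 3.36 in wild-type and 3.23, 3.55 and 1.72 in homozygous kidneys. The Slc15a2 difference between the sets was 1.25 ± 0.29 (SE), or 2.37-fold (limma, adjusted p = 0.0038). This was the only member to lose its call in any alternative run: between the R2E17 and E17R2 arrays alone the difference was 1.14 ± 0.43 (adjusted p = 0.0675).

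The other two Slc15a2 probe sets were low on the same 3 arrays, which belonged to 3 different groups and to both genotypes. On R2NB replicate 3 they read 0.88 and 1.01, on E17R2 wild-type replicate 1 they read 0.24 and 0.51, and on E17R2 homozygous replicate 8 they read 0.13 and 0.39. On the remaining 8 arrays they ran from 2.37 to 4.83 and from 2.04 to 4.24. The main probe set was not low on any of these 3 arrays. With set means removed, Pearson r over 11 arrays was 0.98 between these probe sets and −0.31 and −0.27 with the main probe set, as a description. Their differences between the sets were 1.83 ± 0.81 and 1.29 ± 0.66 (limma over all probe sets, adjusted p = 0.0776 and 0.123). Across the 6 probe sets that did not stand for their gene, 3 passed as higher in the set of 5, where 20.7% of all probe sets did.

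**Figure D3:**
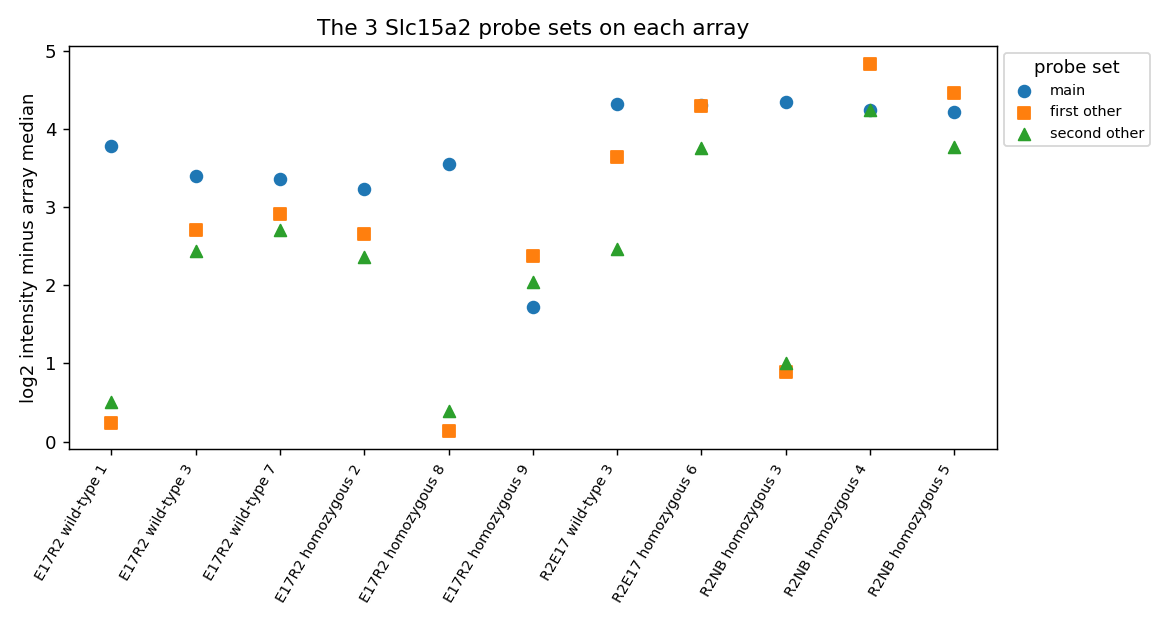
Relative log2 level (vertical axis) of the 3 Slc15a2 probe sets on each of the 11 arrays, with arrays named by group and replicate. The squares and triangles fall to between 0.13 and 1.01 on E17R2 wild-type replicate 1, E17R2 homozygous replicate 8 and R2NB replicate 3, where the circles (main probe set) stay between 3.55 and 4.34.

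Between Robo2 homozygous and wild-type kidneys of the E17R2 series, most transporters had lower values in the homozygous group, and none passed the test. The apical heavy subunit Slc3a1 had the largest difference, followed by the GABA and taurine carrier Slc6a13, whereas Slc7a8 and Slc6a19 hardly differed. In limma with 3 against 3 arrays, 0 of 10 members passed after adjustment over all genes, as did 0.0% of all genes. At an unadjusted p of 0.05, 3 members passed (Slc3a1, Slc1a1 and Slc6a13), where 5.4% of genes did. The difference was below 0 for 9 of 10 members and for 56.2% of genes, with a median of −0.54 over the members and −0.02 over all genes. All 3 homozygous arrays lay below all 3 wild-type arrays for 4 members (Slc3a1, Slc7a7, Slc1a1 and Slc6a13), as they did for 7.21% of genes.

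Slc3a1 differed by −0.80 ± 0.26 (SE), with an adjusted p of 0.867 in limma and an unadjusted p of 0.0187. Slc6a13 differed by −0.77 ± 0.30 and Slc1a1 by −0.55 ± 0.19, each also at an adjusted p of 0.867. The differences of Slc15a2, Slc6a18 and Slc7a9 were −0.67 ± 0.44, −0.67 ± 0.31 and −0.52 ± 0.27, and here the groups overlapped. Slc7a7 differed by −0.30 ± 0.14 and Slc3a2 by −0.14 ± 0.10, while Slc7a8 and Slc6a19 were at −0.02 ± 0.14 and 0.01 ± 0.15.

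Homozygous replicate 9 had the lowest value of the E17R2 arrays for 8 of the 10 members, the exceptions being Slc7a8 and Slc6a19. On that array the 20 proximal tubule markers averaged 1.83, against 2.58 and 2.62 on the other homozygous arrays and 2.77 to 3.06 on the wild-type arrays, and the 6 smooth muscle markers averaged 7.43 against 2.71 to 3.65. Further marker lists had these values by genotype. The 7 stroma markers averaged 6.02 to 6.28 on the homozygous arrays and 5.53 to 5.88 on the wild-type arrays, without overlap. The 5 podocyte markers averaged 2.81 to 3.48 against 3.79 to 3.86, and the 6 loop of Henle markers 2.80 to 3.30 against 3.48 to 3.83. Distal tubule markers averaged 2.53 to 2.67 against 2.89 to 3.00, and collecting duct markers 2.19 to 2.75 against 2.77 to 3.08. Endothelium markers averaged 3.36 to 3.73 against 3.75 to 3.93. The nephron progenitor markers overlapped, at 3.16 to 3.57 against 3.35 to 3.48. The 6 adrenal markers overlapped, at −0.19 to 2.14 against 0.18 to 3.80. No gene of these lists passed in limma, and their part in the transporter values was not tested. Without homozygous replicate 9 the differences were −0.50 for Slc3a1, −0.40 for Slc6a13, −0.37 for Slc1a1, −0.32 for Slc6a18, −0.19 for Slc7a9, −0.15 for Slc7a7 and −0.12 for Slc15a2. Leaving out wild-type replicate 7 gave 3 genes past the threshold in the whole table, and no member among them.

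In the R2E17 pair, with 1 wild-type and 1 homozygous array and no test, transporters were higher in the homozygous kidney about as often as all genes were. The homozygous array was higher for 7 of 10 members, by 1.23 for Slc7a7, 0.90 for Slc3a1, 0.61 for Slc7a9, 0.55 for Slc6a18, 0.46 for Slc1a1 and 0.30 for both Slc3a2 and Slc6a13. Slc7a8 and Slc6a19 both differed by −0.09 and Slc15a2 by less than 0.01. Of all genes, 73.4% were also higher on the homozygous array, with a median of 0.10 against 0.38 over the members. The wild-type array of this pair had a Gapdh 3′ minus 5′ difference of 0.70 and a proximal tubule marker mean of 4.08, against 0.08 and 4.81 on its homozygous partner, and their part in the pair's values was not tested.

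The genotype differences of both series were compared in a limma interaction over these 8 arrays, which assumes that the lone R2E17 arrays vary like the E17R2 arrays. The R2E17 minus E17R2 difference was 1.53 ± 0.28 (SE) for Slc7a7 (limma, adjusted p = 0.177) and 1.69 ± 0.52 for Slc3a1 (adjusted p = 0.260). No member passed after adjustment, against 0.066% of genes that did.

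**Figure D4:**
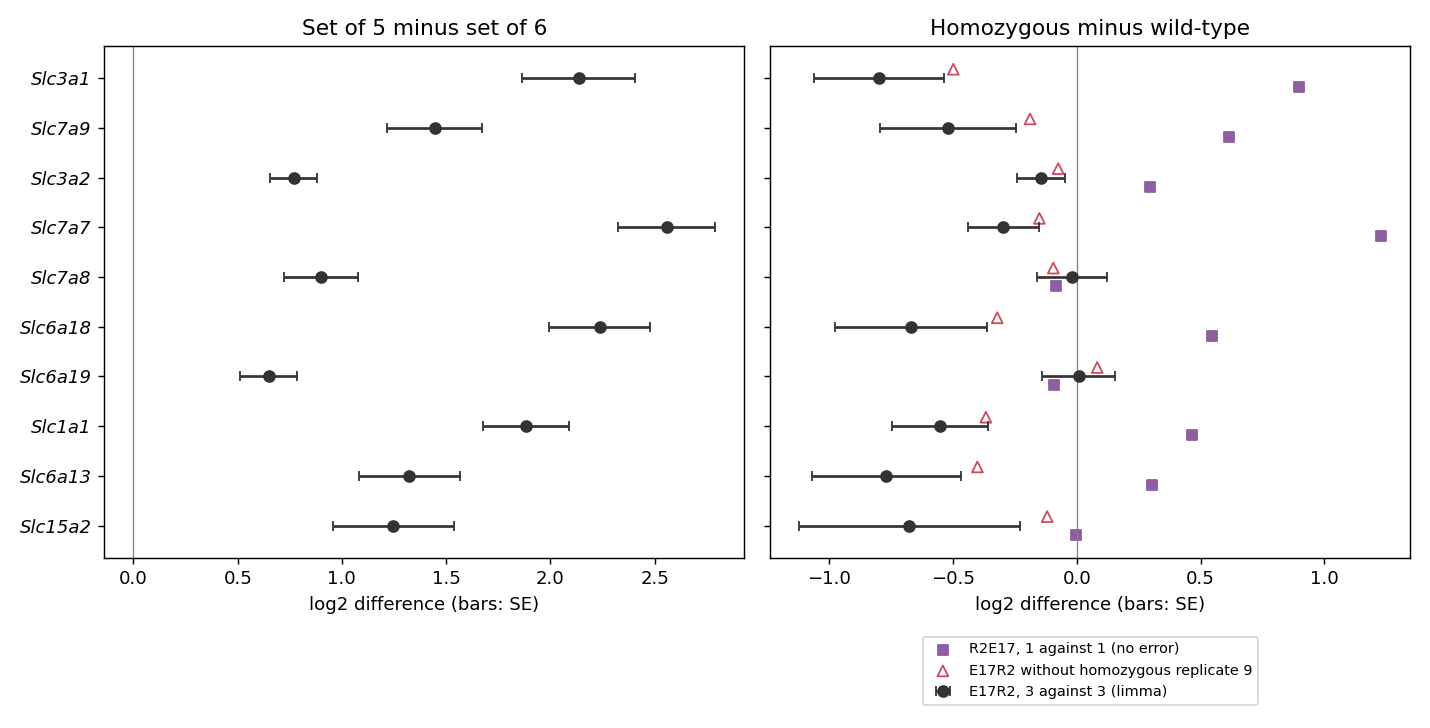
Log2 differences (horizontal axes) of the 10 transporter genes: left, set of 5 minus set of 6 from limma with genotype as a term; right, homozygous minus wild-type in E17R2 (circles), in E17R2 without homozygous replicate 9 (triangles) and in the R2E17 pair (squares, no error). Bars are standard errors. All 10 circles lie right of 0 on the left, as did 7941 of 18193 genes. On the right 9 of 10 circles lie left of 0, as did 56.2% of all genes. Of the squares, 7 of 10 lie right of 0, as did 73.4% of all genes.

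Within the set of 5, the 3 R2NB arrays and the R2E17 homozygous array, all labelled Robo2 homozygous, were compared for the NB title. The differences ran from −0.44 for Slc6a18 to 0.44 for Slc6a19, with standard errors of 0.17 to 0.55. In limma 0 of 10 members passed and 0 had an unadjusted p under 0.05, where 0.011% of genes passed. This design compares 3 arrays with 1, which is assumed to vary like the other groups, and a p that misses the threshold does not show that they are alike.

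The other amino acid and peptide transporters on the array went both ways. Of 39 measured, 20 lay above 0 and 19 below in the set of 5, with a median of 0.09. In limma 16 passed as higher and 8 as lower, where 22.3% of all genes passed as higher and 54.5% in either direction. The largest rises were those of Slc7a12 at 2.64 ± 0.37 (SE), the imino acid carrier Slc6a20b at 1.85 ± 0.25, the basolateral uniporter Slc43a2 at 1.21 ± 0.13 and Slc7a13, another light subunit that pairs with Slc3a1, at 1.11 ± 0.38 (limma, adjusted p of 0.027 or less). Lower were Slc6a17, a carrier of synaptic vesicles, at −1.0 ± 0.12 and Slc43a1 at −0.83 ± 0.15. The light subunit Slc7a5, typical of growing cells, fell by 0.53 ± 0.13 (limma, adjusted p = 0.0045), against the rise of its heavy partner Slc3a2. Other light subunits of that family went both ways. Slc7a11 rose by 0.73 ± 0.11 (limma, adjusted p = 0.00019) and Slc7a6 fell by 0.19 ± 0.08 (limma, adjusted p = 0.049). Slc7a10, at −0.11 ± 0.12, did not pass. Slc6a17, Slc43a1 and these light subunits were named after their values were seen.

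Genes that work beside the transporters were also higher. Of 12 measured partners and brush border peptidases, all 12 lay above 0 in the set of 5, with a median of 1.29, and 11 passed as higher in limma, against 22.3% of all genes. Among them were the aminopeptidase gene Anpep at 2.19 ± 0.26 (SE), the dipeptidase gene Dpep1 at 1.71 ± 0.16, Cltrn, whose product brings Slc6a19 to the surface, at 1.60 ± 0.21, and the scaffold gene Pdzk1 at 1.48 ± 0.24. A list of tubule transcription factors had 5 measured genes, of which 4 passed as higher. These were Hnf4a at 0.97 ± 0.21, Lhx1 at 0.79 ± 0.17, Pax8 at 0.68 ± 0.16 and Hnf4g at 0.20 ± 0.08. Hnf4g was dim, at a mean relative log2 level of −1.95, and passed narrowly (limma, adjusted p = 0.0497). The other gene of that list, Cdh6, encodes a cadherin and not a transcription factor. It was at −0.07 ± 0.11 and did not pass. The 10 amino acid response genes had a median of 0.12. In limma 1 of them passed as higher and 2 as lower, where 54.5% of all genes passed in either direction. Sesn2 rose by 0.64 ± 0.22, while Trib3 and Ddit3 fell by 0.68 ± 0.08 and 0.34 ± 0.07. The 20 proximal tubule markers were all above 0 and 19 passed, with a median of 1.86, and their mean ran from 4.08 to 4.84 on the arrays of the set of 5 and from 1.83 to 3.06 on the set of 6. Medians of some other kidney marker lists were above 0 too. Loop of Henle markers had a median of 1.43, with 5 of 6 passing as higher and 1 as lower. Medians were 0.57 for distal tubule and for podocyte, 0.56 for collecting duct and 0.51 for endothelium. Of 5 distal tubule and 5 podocyte markers, 4 each passed as higher. Of 7 collecting duct markers 4 passed as higher and 1 as lower, and of 6 endothelium markers 4 passed as higher. Stroma and nephron progenitor markers had medians of −0.44 and −0.23. Of 7 stroma markers 4 passed as lower and 1 as higher. Of 6 nephron progenitor markers 1 passed as lower and 0 as higher. The part of all these markers in the transporter differences was not tested. In the E17R2 genotype comparison 0 genes of these lists passed, with medians of −0.06 for the other transporters, −0.57 for the partners and peptidases and −0.68 for the proximal tubule markers.

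The genes most like each member were found by Pearson r over the 11 arrays with the mean of each set removed, as a description. Slc3a1 was most like Slc22a13 at 0.99, Cldn2, a claudin of the leaky proximal epithelium, at 0.98 and Tmem174 at 0.98. Slc6a13 was most like Slc27a2 at 0.99, Hnf4a at 0.99 and Pdzk1 at 0.98. Slc7a9 was closest to Car4 at 0.99, Slc7a7 to Ubl3 at 0.98, Slc6a18 to Gatm at 0.98, Slc1a1 to Aak1 at 0.96 and Slc3a2 to Rgcc at 0.95. Nearest to Slc7a8 were Ces1c at 0.95, Lrg1 at 0.90 and Cyp2f2 at 0.89, and nearest to Slc6a19 were Htr2c at 0.90, Ppbp at 0.88 and Ighm at 0.88. For Slc15a2 the likeness rested in part on E17R2 homozygous replicate 9. Its r with Ctxn3, the closest gene, was 0.97 with that array and 0.85 without it. With Tada2a it was 0.96 and 0.71, and with Slc40a1 0.96 and 0.56. The lowest r of any member pair was −0.16, for Slc7a8 with Slc15a2, which became 0.05 without that array, where the lowest was −0.46, for Slc6a19 with Slc15a2. Over the 45 pairs of members the median r was 0.65, and 0.52 without E17R2 homozygous replicate 9.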

How the data were processed

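The authors deposited 1 linear intensity value per probe set and array, with RMA named in the submitters' processing notes. Its version and the scanner settings are not stated in the labels. The deposited values were taken as log2 here, with no pseudocount, and centred on each array's median. Names of probe sets came from the platform annotation (34945 of 45101 with 1 symbol, 932 with several, 9160 without, 64 controls). Of the probe sets with 1 symbol, 34741 were found by gene identifier in the RefSeq table of GRCm38.p6. Groups followed the source labels and titles. No detection calls were used, and the number of arrays limits the precision.

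The tests across genes used lmFit and eBayes of limma 3.58.1 (R 4.3.3; 2-sided, Benjamini-Hochberg over 18193 genes, threshold 0.05). Subunit ratios were tested by exact permutation in Python 3.11.15. The fits were tested on simulated data: with 3 against 3 arrays, 72 of 100 genes changed by 1 on the log2 scale were recovered, and between the sets 93 of 100. Each run also held 100 genes changed by 2, and 10 unchanged genes were called. The noise was normal and independent between genes and arrays, so effects shared by the genes of an array were left out. These shares may thus overstate what the real arrays could recover.

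The members and lists were chosen with earlier results of these data known. The text names every member and Robo2. From each other list it names the up to 4 genes with the largest difference past the threshold in a comparison, and for each member the 3 most correlated genes or fewer. Slc6a17, Slc43a1, Slc7a5, Slc7a6, Slc7a10, Slc7a11 and Cdh6 were added after their values were seen. Alternatives covered scaling, dim genes, the variance prior, the probe set per gene, the arrays fitted and each array left out.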

Additional observations from a re-analysis of the deposited data

How the results depend on the processing

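The difference between the sets kept its direction and call in 218 of 219 combinations of a member and an alternative setting, the exception being Slc15a2 as given above. Scaling to the 75th percentile moved the median gene from −0.07 to −0.17 and the whole-table split from 4055 higher and 5854 lower to 3306 and 7646. The 9909 genes past the threshold became 5421 with dim genes left out, 18863 of 34945 with every probe set as a row (added after seeing the data), and 8983 to 10099 with 1 array left out. In the E17R2 genotype comparison the count ran from 0 to 3 with 1 array left out. For R2NB minus R2E17 homozygous the 2 genes became 7 with every probe set as a row, 1 with the mean of a gene's probe sets, and 2 to 13 with 1 array left out, the 13 without R2NB replicate 3. No member was among the calls in either comparison.

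Signs turned only for uncalled values. In the E17R2 genotype comparison Slc7a8 became 0.036 at the 75th percentile and 0.034 after quantile normalization. Slc6a19 became −0.0016 after quantile normalization, −0.14 with the mean of its probe sets and −0.017 with the R2E17 pair added, where Slc7a7 became 0.086. With 1 array left out, Slc6a19 ran from −0.155 to 0.095 and Slc7a8 from −0.104 to 0.089. For R2NB minus R2E17 homozygous, Slc15a2 became 0.013 at the 75th percentile and 0.0125 after quantile normalization, and against both R2E17 arrays Slc3a1 became 0.12, Slc7a7 0.45 and Slc7a9 0.071. With 1 array left out, Slc6a13 ran from −0.016 to 0.075, Slc1a1 from −0.061 to 0.18 and Slc7a7 from −0.26 to 0.025. The cause was not tested. Among homozygous arrays the subunit differences were 0.84 and −2.05, where the smallest possible p is 0.0571. No paired analysis was possible because the groups compared share fewer than 2 replicate numbers.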
